A study of Schizosaccharomyces pombe with 78 samples.

Results

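The genes described here encode subunits of the complexes that mark and open replication origins in the fission yeast Schizosaccharomyces pombe. They were taken by name and not by a rule on their values, though earlier results of these data were known. They are the 5 Mcm helicase genes mcm2 (SPBC4.04c), mcm3 (SPCC1682.02c), mcm4 (SPCC16A11.17), mcm6 (SPBC211.04c) and mcm7 (SPBC25D12.03c), and the 4 origin recognition genes orc1 (SPBC29A10.15), orc2 (SPBC685.09), orc4 (SPBP23A10.13) and orc5 (SPBC646.14c). These are 9 of the 12683 features in the table, and all 9 were among the 7431 features tested, those with a mean of at least 10 normalized counts. The partner genes mcm5, orc3 and orc6 are not among the 9 and were read with the other initiation genes.

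The origin recognition complex sits on origin DNA and, with the loading factors Cdc18 (Cdc6 in other organisms) and Cdt1, places the ring of Mcm proteins around DNA when cells leave mitosis, a step called licensing. The ring is the core of the replicative helicase and is switched on at the start of S phase, when Cdc45 and the GINS complex join it. In fission yeast Orc4 carries the AT-hook motifs that hold the complex on AT-rich origin DNA. Transcription of cdc18 and cdt1 depends on MBF, the factor that drives the G1/S genes and that the co-repressor Nrm1 restrains. The question put to the 9 genes was whether their transcripts follow the cell cycle and whether they depend on the phosphorylation state of Nrm1.

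Polyadenylated RNA was sequenced from 3 strains. All of them carried cdc25-22, a temperature-sensitive allele of the Cdc25 phosphatase that stops cells in G2, and a tagged nrm1. They were cdc25-22 nrm1-HA (called Nrm1), cdc25-22 nrm1-SA-HA (Nrm1-SA) and cdc25-22 nrm1-SD-HA (Nrm1-SD). In Nrm1-SA most of the putative CDK sites are alanines and cannot be phosphorylated, and in Nrm1-SD the same sites are phosphomimetic. RNA was taken from unsynchronised growth and at 12 times after the block, every 20 min from 0 min to 220 min. There were 2 biological replicates, which gives 78 libraries in 39 conditions. Libraries of the same replicate number within a strain were read as 1 culture, which the sources used here do not state. Each genotype is 1 strain, all 3 went through the same block, and the values come from whole cultures, in which less transcript per cell and fewer cells at a phase cannot be told apart. The libraries held between 2685381 and 10469416 reads in genes. At 140 min the pair of Nrm1-SA libraries differed by less than the sampling noise. Its chi-square was 0.392 per degree of freedom, where counting noise alone would give about 1. These libraries held 3779270 and 3779599 reads, and whether they share reads was not tested. The pair was counted as 1 sample, its mean, so that 77 libraries entered the tests. The other 38 pairs had a chi-square of 1.88 to 18.2 per degree of freedom, and the least alike pair was Nrm1-SD at 220 min.

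The upstream sequences of 6 genes are shown because they bear on the comparison with MBF targets. They are the 150 bases before the annotated transcript start in RefSeq assembly ASM294v3, 5′ to 3′ on the strand of the gene. mcm6 and mcm7 are the genes of the 9 with the MBF core letters within 300 bases, orc4 and orc5 are those with the largest waves, and cdc18 and cdt1 are the MBF targets that act beside them. Capitals mark ACGCG on either strand (CGCGT on the other), the core of the MluI cell cycle box, and GTAAACA on either strand, the forkhead element.
mcm6 (II:3883058-3883207, minus strand): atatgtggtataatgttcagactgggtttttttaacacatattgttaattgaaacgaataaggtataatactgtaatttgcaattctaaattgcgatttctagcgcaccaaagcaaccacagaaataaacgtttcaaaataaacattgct
mcm7 (II:3720040-3720189, minus strand): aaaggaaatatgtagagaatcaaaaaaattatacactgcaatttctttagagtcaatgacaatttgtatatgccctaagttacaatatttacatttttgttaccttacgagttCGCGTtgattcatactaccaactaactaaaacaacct
orc4 (II:2025238-2025387, plus strand): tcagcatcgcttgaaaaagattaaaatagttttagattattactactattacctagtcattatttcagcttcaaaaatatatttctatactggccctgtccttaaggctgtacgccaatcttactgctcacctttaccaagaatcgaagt
orc5 (II:954318-954467, minus strand): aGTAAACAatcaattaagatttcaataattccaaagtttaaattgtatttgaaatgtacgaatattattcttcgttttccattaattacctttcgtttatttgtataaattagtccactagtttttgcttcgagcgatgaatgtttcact
cdc18 (II:2217985-2218134, minus strand): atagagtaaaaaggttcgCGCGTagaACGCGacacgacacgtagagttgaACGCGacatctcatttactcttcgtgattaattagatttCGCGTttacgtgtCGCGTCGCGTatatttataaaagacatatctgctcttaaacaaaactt
cdt1 (II:477242-477391, plus strand): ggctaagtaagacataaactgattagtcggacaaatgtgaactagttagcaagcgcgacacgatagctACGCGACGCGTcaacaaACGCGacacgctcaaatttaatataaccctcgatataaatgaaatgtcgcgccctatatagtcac
The full box ACGCGT was found within 300 bases upstream of 0 of the 9 genes and of 2.9% of all 5112 genes with an annotated upstream window. Its core ACGCG, which the full box contains, occurred in mcm6, 276 bases before the start and so outside the printed stretch, and in mcm7, 37 bases before it, against 10.6% of all genes. In the same window cdc18 held 6 cores and cdt1 held 4, which overlap in part. GTAAACA occurred in mcm2, mcm7 and orc5, against 17.0% of all genes, and in orc5 it lay 149 bases before the start. The pombe cell cycle box GCAACG was found in 0 of the 9, against 8.16% of all genes, while the histone box AACCCT was found in mcm3 and orc1, against 9.57%. These matches describe letters in a window and not sites of binding.

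Levels per transcript length in asynchronous Nrm1 cells placed mcm7 first and orc4 last. mcm7 was highest at 413 ± 24.2 normalized counts per kb (SD, n = 2), followed by orc2 at 338 ± 21.9, mcm3 at 283 ± 7.32, orc1 at 231 ± 16.0 and mcm2 at 215 ± 16.6. mcm4 had 177 ± 12.8, orc5 156 ± 0.714, mcm6 151 ± 4.19 and orc4 150 ± 7.15 normalized counts per kb. The neighbours orc1 and mcm2 differed by about their SD, and mcm6 and orc4 by less than theirs. Over all libraries mcm7 made up 34.1% of the summed level per kb of the 5 mcm genes and mcm6 10.7%. Of the 4 orc genes, orc2 made up 36.9% and orc4 17.1%. The order rests on annotated transcript lengths, from 1641 bases for orc2 to 3882 bases for mcm3.

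Most of these genes share DNA with a gene on the other strand. mcm6 and mcm7 have no such partner, and the other 7 overlap noncoding RNA genes that averaged between 0.5 and 42.2 normalized counts. Protein-coding partners were qcr9 for mcm3, SPCC24B10.02c for mcm4 and ell1 for orc4, which share 613, 143 and 67 bases. Among all protein-coding genes, the 579 that lie wholly under genes of the other strand had a median of 213 normalized counts per kb and the 518 free of them 290, so reads of covered genes were not discarded as a whole. Whether counting used strand is not given in the sources used here. Of the coding partners, qcr9 averaged 573 normalized counts against 1066 for mcm3, ell1 525 against 509 for orc4, and SPCC24B10.02c 329 against 551 for mcm4.

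In asynchronous cultures no difference between the strains passed the test in any of the 9 genes. For Nrm1-SA against Nrm1, limma called 0 of the 9, where 13.8% of all tested features were called, and 1 gene, mcm3, had an unadjusted p under 0.05. edgeR and DESeq2 also called 0. The values of mcm3 were 1078 and 1118 normalized counts in Nrm1 and 999.8 and 934.7 in Nrm1-SA, which do not overlap, a log2 difference of -0.18 ± 0.09 (SE; limma adjusted p = 0.20). For Nrm1-SD limma, edgeR and DESeq2 called 0 of the 9, 0 had an unadjusted p under 0.05, and 2.4% of all features were called. The log2 differences lay between -0.18 and 0.10 in Nrm1-SA and between -0.10 and 0.14 in Nrm1-SD. Of the 20 other initiation genes, cdt1 and cdc18 were lower and sld3 higher in asynchronous Nrm1-SA, with log2 differences of -1.27 ± 0.11 for cdt1 (limma adjusted p = 5.3e-13) and 0.22 ± 0.09 for sld3 (0.095). In Nrm1-SD cdt1 was lower, at -1.0 ± 0.11.

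Between asynchronous growth and 0 min, 1 of the 9 differed in Nrm1 cells, where 59.6% of all features were called. The 0 min samples were both arrested and at the restrictive temperature, which cannot be told apart. orc1, the gene of an origin recognition subunit, had 511.2 and 563.7 normalized counts in asynchronous cells and 606.5 and 647.7 at 0 min. The groups did not overlap and the log2 difference was 0.22 ± 0.08 (SE; limma adjusted p = 0.013), a call that was lost without Nrm1 replicate 1, where the difference was 0.20. At 0 min no difference between a mutant and Nrm1 passed in any of the 9. limma, edgeR and DESeq2 called 0 for Nrm1-SA (4.54% of all features by limma) and 0 for Nrm1-SD (2.03%). At an unadjusted p under 0.05 stood 1 gene for Nrm1-SA, orc4 with 620.1 and 539.6 normalized counts against 481.7 and 535.7 in Nrm1, and 0 for Nrm1-SD. Of the 20 other initiation genes, 15 differed between 0 min and asynchronous growth in Nrm1. cdc23 (0.65 ± 0.11 on the log2 scale), hsk1, sld3, drc1, sld5, orc6, rad4 and psf3 were higher at 0 min, and cdt1 (-1.70 ± 0.11), cdt2, mcb1, cdc45, dfp1, ddb1 and cdc18 were lower. At 0 min cdc18, cdt1 and cdt2 were lower in Nrm1-SA, down to -0.52 ± 0.11 for cdt1, and higher in Nrm1-SD, up to 1.24 ± 0.10 for cdt2.

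After release every member changed over time in every strain, by a test that the 12 time points share 1 mean. limma called 9 of 9 in Nrm1, where 88.1% of all features were called, 9 of 9 in Nrm1-SA (83.9%) and 9 of 9 in Nrm1-SD (91.9%). The shares over all features are so high that these counts say little about the 9. Without Nrm1 replicate 1 or 2, mcm2 lost its call in Nrm1, with limma adjusted p of 0.12 and 0.23. In Nrm1-SA orc2 lost it without replicate 1 (0.38) and orc1 without replicate 2 (0.42), and in Nrm1-SD orc1 lost it without replicate 2 (0.17).

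**Figure D1:**
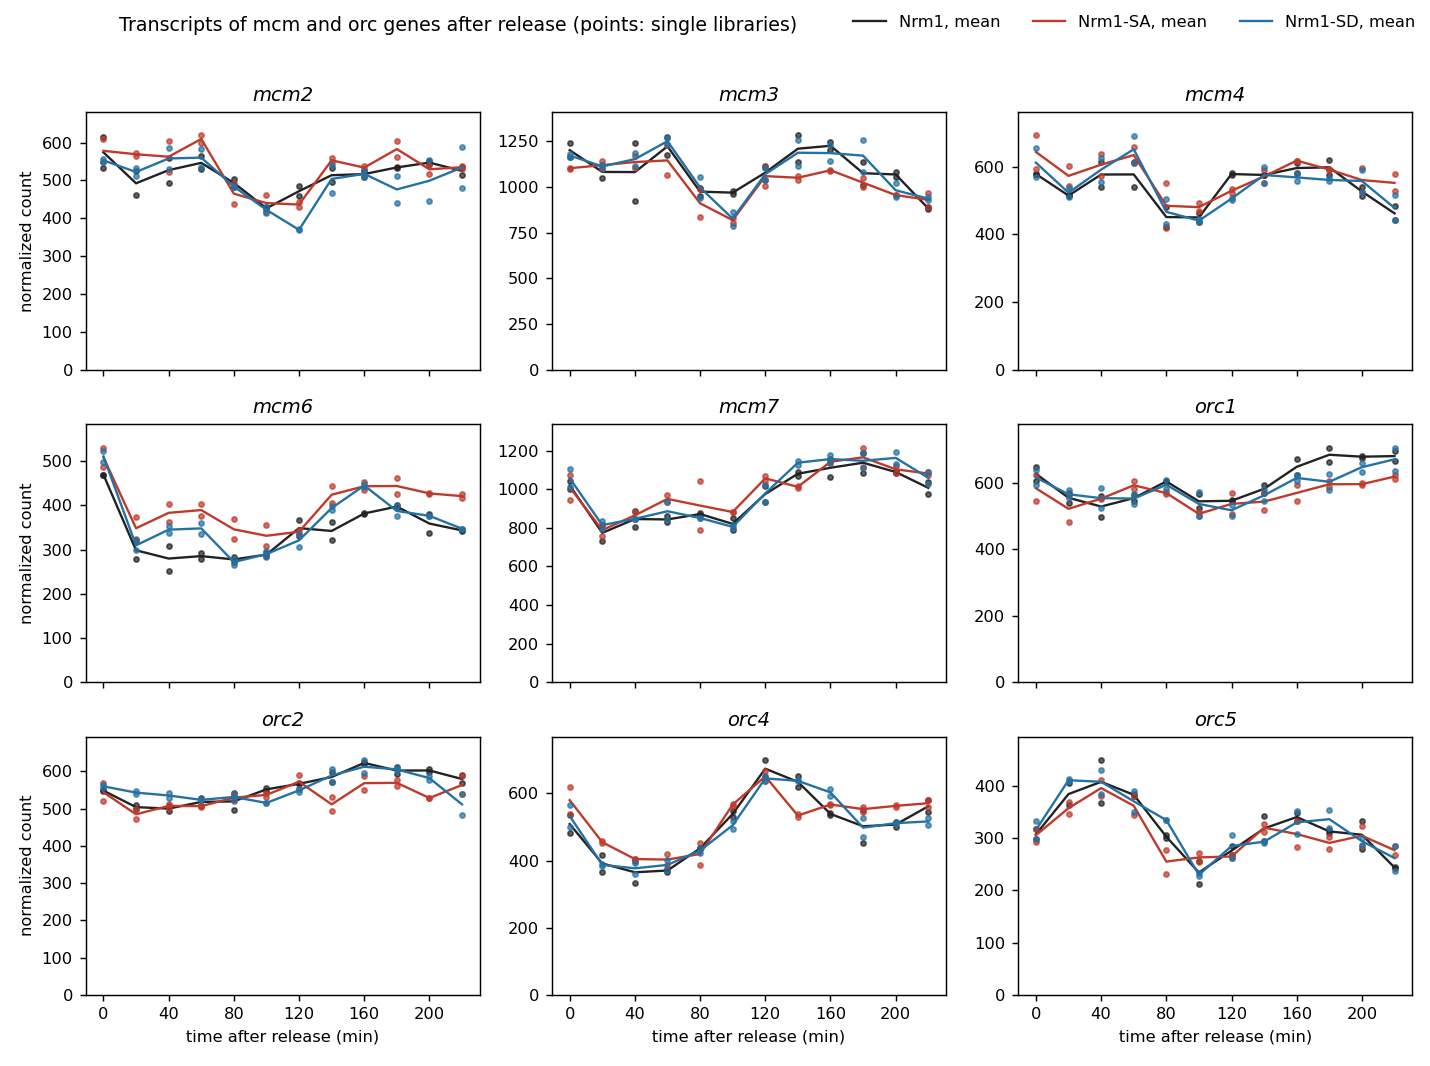
Normalized counts (y axis, from 0) of the 9 genes against minutes after release (x axis), 1 panel per gene. Points are single libraries and lines join the means of 2 libraries for Nrm1 (black), Nrm1-SA (red) and Nrm1-SD (blue). mcm6 starts near 470 to 510 and drops in all strains, orc4 and orc5 move in opposite directions, and the means of orc1 and orc2 stay within 1.3-fold.

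The changes were small. In Nrm1 the highest condition mean over the lowest was 1.85-fold for orc4, 1.74-fold for orc5 and 1.69-fold for mcm6. It was 1.47-fold for mcm7, 1.39-fold for mcm3, 1.35-fold for mcm2 and 1.33-fold for mcm4, and it was 1.29-fold for orc1 and 1.25-fold for orc2. In Nrm1-SA the range of these ratios was 1.18 to 1.62-fold and in Nrm1-SD 1.20 to 1.88-fold.

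The first change was the step from 0 to 20 min. In Nrm1, 8 of the 9 genes had both 20 min libraries below both 0 min libraries, where 37.2% of all tested features did, and orc5 was the exception, with both libraries above. In Nrm1-SD the same 8 genes were lower (38.9% of all features), and in Nrm1-SA 4 were: mcm6, mcm7, orc2 and orc4 (39.4%). orc5 was higher at 20 min in each strain without overlap, and the share of all features that were higher in this way was not counted. This step coincides with the shift from the restrictive to the permissive temperature, and the part of temperature was not tested. mcm6, a ring subunit at II:3880098-3883057 on the minus strand, had the largest step. Its libraries read 469.7 and 469.2 normalized counts at 0 min and 277.8 and 319.2 at 20 min in Nrm1. They read 530.5 and 487.3 against 323.6 and 373.1 in Nrm1-SA, and 523.2 and 498.1 against 298.1 and 321.1 in Nrm1-SD. The log2 step was -0.66 ± 0.14 (SD over 2 cultures) in Nrm1, against -0.55 ± 0.23 for Nrm1-SA and -0.72 ± 0.13 for Nrm1-SD. In Nrm1 7.48% of all features had a lower step than mcm6, and the median over all features was -0.03. For mcm7 and orc4 that share was 17.2% and 18.6%, and for mcm2, mcm3, mcm4, orc1 and orc2 it was 30.2% to 39.9%. In Nrm1-SD it was 44.9% for mcm2, 45.8% for mcm3 and 48.5% for orc2, so that several of the steps were ordinary in size. The step of mcm7, another ring subunit (II:3717577-3720039, minus strand), was -0.40 ± 0.07 in Nrm1, from 1001 and 1040 normalized counts to 731.9 and 815.5.

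mcm6 and mcm7 then stayed low through the first cycle and were higher in the second. In Nrm1, mcm6 lay between 251.6 and 308.0 normalized counts in the 8 libraries from 40 to 100 min and between 338.5 and 401.5 in the 8 libraries from 160 to 220 min, below both libraries of the block in each case. mcm7 read between 787.3 and 888.6 from 40 to 100 min and between 976.6 and 1187 from 160 to 220 min, above both 0 min libraries at 160, 180 and 200 min. The early and late libraries did not overlap for either gene, and the share of all features with such a separation was not counted. For mcm7 the early and late libraries were also apart in Nrm1-SA and Nrm1-SD. For mcm6 they were apart in Nrm1-SA, whereas in Nrm1-SD the 220 min libraries, at 347.6 and 346.8, lay within the early ones. Neither gene had a wave of 120 min that passed the test in any strain, with fitted peak-to-trough of 0.24 and 0.15 on the log2 scale in Nrm1. Both gained a call in each strain when the 0 min libraries were left out, with limma adjusted p of 0.0033 for mcm6 and 0.0018 for mcm7 in Nrm1.

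**Figure D2:**
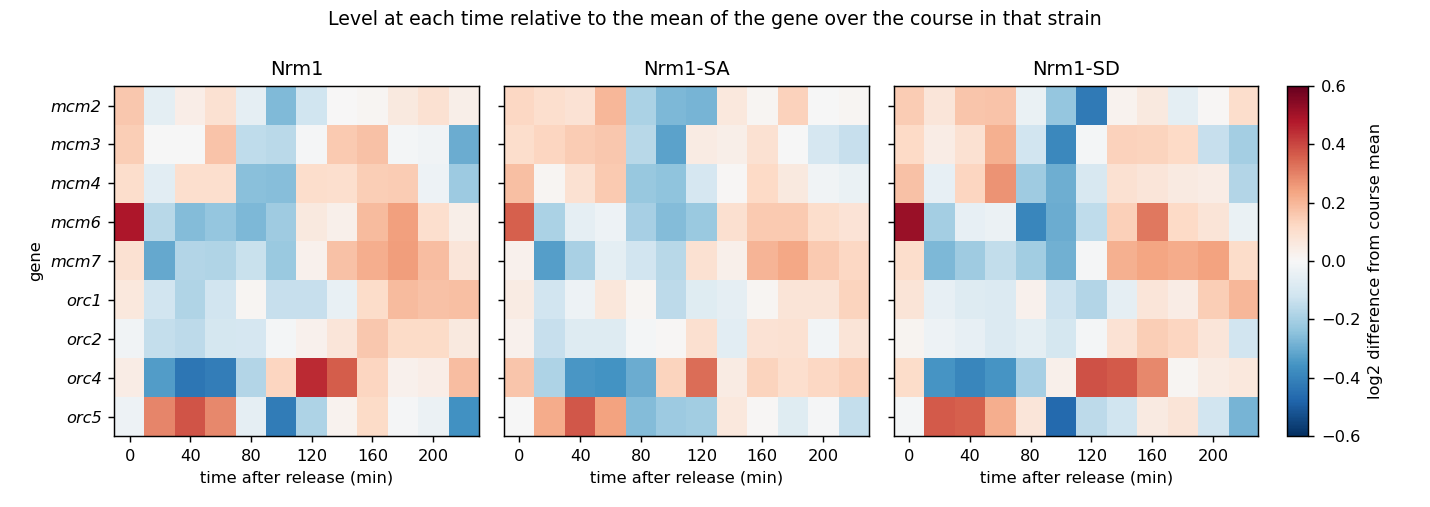
Each cell is the log2 mean at a time point (x axis, minutes after release) minus the mean of that gene (y axis) over the course in that strain. Red is higher and blue lower, on a scale from -0.6 to 0.6. The low of mcm3 and mcm4 at 80 and 100 min, that of mcm2 at 100 and 120 min, the early low of orc4 and the early high of orc5 recur in the 3 strains.

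In Nrm1, mcm2, mcm3 and mcm4 shared a dip near 100 min. From 60 to 100 min both libraries came to lie below in 4 of 9 genes in Nrm1 (mcm2, mcm3, mcm4 and orc5), against 35.4% of all features. In Nrm1-SA 7 did, the same 4 with mcm6, mcm7 and orc1 (34.7%). In Nrm1-SD 7 did, the same 4 with mcm6, mcm7 and orc2 (33.1%). The mean of mcm2 was lowest at 120 min in both mutants, with 436.5 against 440.3 at 100 min in Nrm1-SA and 369.7 against 422.5 in Nrm1-SD. mcm3 (III:371443-375324, minus strand) read 1272 and 1174 normalized counts at 60 min and 961.7 and 977.6 at 100 min in Nrm1, a log2 step of -0.33 ± 0.10 (SD over 2 cultures). It came back to 1205 and 1246 at 160 min and was at 888.6 and 877.3 at 220 min, 120 min after the first dip. mcm4 (III:900388-903425, plus strand) read 613.2 and 540.8 at 60 min, 464.3 and 435.7 at 100 min, 619.6 and 576.3 at 180 min and 482.9 and 441.3 at 220 min. In Nrm1 the libraries at 220 min lay below all those from 120 to 200 min for both genes, with no share over all features counted. In the mutants the 220 min libraries overlapped those between, as for mcm4 with 577.0 and 527.0 at 220 min against 596.2 and 524.7 at 200 min in Nrm1-SA. mcm2 (II:1191208-1194142, minus strand), whose libraries read 529.4 and 563.9 at 60 min and 429.6 and 423.7 at 100 min, read 535.1 and 515.5 at 220 min and had no low there.

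Among the origin recognition genes, orc4 and orc5 ran in opposite directions. orc4 (II:2025388-2028676, plus strand), the gene of the DNA-binding subunit, read 398.1 and 331.9 normalized counts at 40 min, 366.9 and 373.8 at 60 min and 699.1 and 648.3 at 120 min in Nrm1. In Nrm1-SA it read 387.0 and 418.7 at 60 min and 665.4 and 636.2 at 120 min, and in Nrm1-SD 373.0 and 401.0 and then 652.0 and 637.5. orc5 (II:952334-954317, minus strand), the gene of a subunit of the AAA+ ATPase family, read 365.9 and 448.8 at 40 min, 380.4 and 384.8 at 60 min and 255.5 and 212.4 at 100 min in Nrm1, and was low again at 220 min with 244.6 and 242.6. Over the 39 condition means the Pearson r between orc4 and orc5 was -0.66, given as a description, since the points share strains, cultures and the course. The 6 pairs of orc genes had r from -0.66 to 0.58 with a median of 0.01, and the 10 pairs of mcm genes 0.14 to 0.74 with a median of 0.47. The highest values were 0.74 for mcm3 with mcm4 and 0.74 for mcm7 with orc2.

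orc1 (II:2571101-2573477, plus strand) and orc2 (II:2782036-2783676, plus strand), a core subunit, were the flattest. orc1 ranged from 497.9 to 705.9 normalized counts with a median of 598.4 over the 24 libraries of Nrm1. Its 8 libraries from 160 to 220 min, at 623.9 or more, lay above all others of the course apart from 1 of the 0 min libraries at 647.7. The share of all features with such high late libraries was not counted. orc2 ranged from 492.5 to 625.4 with a median of 560.6, and its highest mean was at 160 min, with 620.2 and 625.4.

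Waves of 120 min, fitted per strain beside a linear trend, passed the test in 4 of 9 genes in Nrm1 (mcm3, mcm4, orc4 and orc5), where 53.8% of all features passed. In Nrm1-SA they passed in 5 (the same 4 and mcm2; 37.6%) and in Nrm1-SD in 5 (the same 4 and orc2; 53.4%). The share among the 9 is near that of all features in Nrm1 and Nrm1-SD. Peak-to-trough on the log2 scale in Nrm1 was 0.55 for orc4, 0.53 for orc5, 0.33 for mcm4 and 0.26 for mcm3. Over single cultures it was 0.55 ± 0.03 for orc4 and 0.54 ± 0.17 for orc5 (SD, n = 2). The median of all tested features was 0.36, so that mcm3 and mcm4 lay below it. The licensing genes had 2.00 for cdc18 and 3.89 for cdt1. The fitted maxima in Nrm1 fell at 35.0 min for mcm3, 34.0 min for mcm4 and 44.4 min for orc5, and for orc4 at 2.44 min, which is 120 min later again. For orientation, the median maximum was 57.1 min in 6 mitotic genes, 64.0 min in 7 MBF targets, 74.4 min in 7 septation genes and 90.5 min in 9 histone genes. Thus the fitted maxima of mcm3, mcm4 and orc5 came before the median of each of these groups. The measured means in Nrm1 were highest at 40 min for orc5, at 160 min for mcm3 and at 180 min for mcm4. At 40 min mcm3 had 1082 normalized counts, against 1223 at 60 min, so a measured peak near 35 min was not seen in the first cycle. In Nrm1-SD the fitted maxima were 37.9 min for mcm3, 42.2 min for mcm4, 46.8 min for orc5 and 7.33 min for orc4. The septation and histone medians there were 77.5 and 98.0 min. Without Nrm1 replicate 1, mcm3 and mcm4 lost their calls in Nrm1 (adjusted p of 0.41 and 0.12), and mcm4 also without replicate 2 (0.11). In Nrm1-SA mcm3 and orc5 were the 2 genes still called without replicate 1, orc4 was the 1 gene without replicate 2, and 3 were called without Nrm1 replicate 1. In Nrm1-SD 3 were called without replicate 1, where mcm4 (0.25) and orc2 (0.11) lost theirs, and orc2 lost its call without replicate 2 as well (0.36), where mcm2 gained one (0.082).

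**Figure D3:**
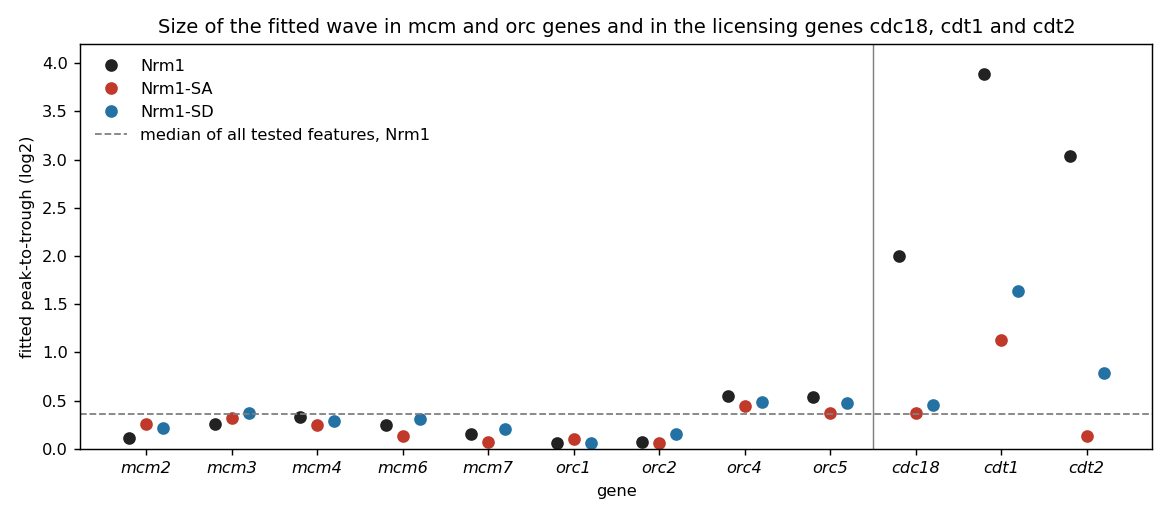
Fitted peak-to-trough of the 120 min wave on the log2 scale (y axis, from 0) for the 9 genes and, right of the vertical line, cdc18, cdt1 and cdt2, in Nrm1 (black), Nrm1-SA (red) and Nrm1-SD (blue). The dashed line is the median of all tested features in Nrm1, 0.36. The 9 genes lie at 0.55 or less in each strain, and cdc18, cdt1 and cdt2 lose most of their wave in the mutants.

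The shape of the course was compared by the strain-by-time terms, by the wave and by the amplitude in fixed windows. The strain-by-time test called 0 of 9 in Nrm1-SA (13.9% of all features) and 0 of 9 in Nrm1-SD (3.01%), while 2 genes, mcm6 and orc4, had an unadjusted p under 0.05 in Nrm1-SA and 1, mcm6, in Nrm1-SD. edgeR called 1 in Nrm1-SA, mcm6, and 0 in Nrm1-SD, and DESeq2 called 0 in both. For mcm6 in Nrm1-SA limma gave an adjusted p of 0.103, just beyond the threshold of 0.1. It passed without Nrm1 replicate 1 (0.069) and under 6 other alternatives: TMM scaling (0.067), a mean of at least 50 (0.075), all 78 libraries (0.085), a replicate block shared by the strains (0.087) or set per strain (0.086), and edgeR (0.045). orc4 passed with all 78 libraries (0.060). The test of the wave itself called 0 of 9 in Nrm1-SA (0.498% of all features) and 0 of 9 in Nrm1-SD (0.538%), with 0 genes at an unadjusted p under 0.05 and 0 by edgeR and by DESeq2. The strain-by-time terms of cdc18, cdt1, cdt2 and dfp1 passed in both mutants. By the test of the wave cdc18, cdt1 and cdt2, the gene of the Cdt1-degrading ubiquitin ligase subunit, were called in both mutants, 3 of the 20 other initiation genes. mcm5, orc3 and orc6 were not among those called. The peak-to-trough of cdc18 was 2.00 in Nrm1, against 0.38 and 0.46 in Nrm1-SA and Nrm1-SD, while that of orc4 was 0.55, against 0.45 and 0.48.

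The window in which MBF targets are high, the mean of 60, 80, 180 and 200 min, was also set against 120 and 140 min. In Nrm1 this amplitude passed in 2 of 9 genes, where 48.1% of all features passed. orc4 was lower in that window, with a log2 amplitude of -0.54 ± 0.05 (SE, limma adjusted p = 3.9e-13), and orc1 was higher, with 0.16 ± 0.05 (adjusted p = 0.0066). In the first cycle alone the amplitude of orc1 was 0.04 and was not called. Its mean normalized counts were 554.1 and 604.2 at 60 and 80 min and 546.1 and 582.2 at 120 and 140 min. At 180 and 200 min they were 684.6 and 678.7, so that the difference came from the second cycle. The call of orc1 was lost without Nrm1 replicate 2, and 4 genes were called without either Nrm1-SD replicate, mcm2 and orc5 being the additional ones. Of the 20 other initiation genes, cdt1 (3.32 ± 0.07), cdt2, cdc18, dfp1, hsk1, mcl1 and orc6 were higher in the window, and drc1 (-0.48 ± 0.05), psf1, psf2, sld5, mcm5 and cdc45 lower. Between the strains it differed in 1 gene in Nrm1-SA, orc4, with a log2 difference of 0.24 ± 0.08 (adjusted p = 0.063), where 6.04% of all features were called. The median peak-to-trough was also smaller in other groups of genes in Nrm1-SA, at 3.11 against 4.53 in septation genes, 1.07 against 1.75 in mitotic genes, 1.49 against 2.46 in histone genes and 0.31 against 0.36 over all features, and the part of this in the difference of orc4 was not tested. At 140 min orc4 read 651.0 and 617.9 normalized counts in Nrm1 and 530.1 and 537.6 in the Nrm1-SA libraries that were merged to 1 sample, and at 80 min it read 438.6 and 434.2 against 451.5 and 387.7. The call was lost without any single replicate of Nrm1 or Nrm1-SA, where the difference lay between 0.22 and 0.26, without the filter on low values and in the first cycle alone. In Nrm1-SD limma, edgeR and DESeq2 called 0 of 9, 0 had an unadjusted p under 0.05, and 1.48% of all features were called. The 9 differences there lay between -0.01 and 0.15 with SE of up to 0.09. Of the 20 other initiation genes, cdc18, cdt1, cdt2 and dfp1, the regulatory subunit gene of the Hsk1 kinase, had a lower amplitude in Nrm1-SA, and the first 3 also in Nrm1-SD, as far down as a log2 difference of -2.89 ± 0.10 for cdt2 in Nrm1-SA.

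The mean level over the course was compared last. In Nrm1-SA 7 of the 9 were called, where 57.7% of all features were. Higher in Nrm1-SA were mcm4, mcm6, mcm7 and orc4 (29.1% of all features were called higher), and lower were mcm3, orc1 and orc2 (28.5%). A majority of all features were called as well, and the sizes were small. The log2 differences were 0.08 ± 0.03 for mcm4, 0.05 ± 0.02 for mcm7, 0.07 ± 0.02 for orc4, -0.08 ± 0.03 for mcm3, -0.09 ± 0.02 for orc1 and -0.06 ± 0.02 for orc2 (SE). mcm2 had 0.05 ± 0.03 (limma adjusted p = 0.14) and orc5 -0.04 ± 0.03 (0.34), and neither passed. The median over all features was -0.0037. Called genes of each complex lay on both sides of 0, as did the calls over all features, at 29.1% higher and 28.5% lower. Several of these calls rested on single cultures, as given below.

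mcm6 stood out among the 9. Over the course it ranged from 251.6 to 469.7 normalized counts with a median of 334.4 in the 24 libraries of Nrm1, from 307.2 to 530.5 with a median of 403.3 in the 23 samples of Nrm1-SA, and from 265.5 to 523.2 with a median of 350.2 in the 24 of Nrm1-SD. At 11 of the 12 time points both Nrm1-SA libraries lay above both Nrm1 libraries, which held for 3.53% of all features, and only at 120 min did they overlap, with 330.3 and 366.8 in Nrm1 and 335.8 and 345.0 in Nrm1-SA. The log2 difference was 0.25 ± 0.03 (SE; limma adjusted p = 8.7e-12), or 1.19-fold, and 91.1% of all features had a lower one. In Nrm1-SD both libraries lay above at 6 of the 12 time points, which 5.49% of all features reached, with a difference of 0.09 ± 0.02 (adjusted p = 0.011). mcm6 was the 1 gene of the 9 called in Nrm1-SD, where 14.8% of all features were called, and it was not called without Nrm1 replicate 1, where the difference was 0.07. In asynchronous cultures mcm6 read 438.6 and 456.1 in Nrm1, against 452.7 and 418.8 for Nrm1-SA and 451.7 and 483.6 for Nrm1-SD, so that the groups overlapped.

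The fit takes the time points of a culture as independent. A culture here means the libraries of 1 replicate number within a strain, which is an assumption. By culture, the mean log2 level of mcm6 was 8.39 ± 0.03 in Nrm1 and 8.64 ± 0.03 in Nrm1-SA (SD, n = 2), with no overlap, and the exact permutation test of 2 cultures against 2 gave its smallest 2-sided p, 0.33. Without single cultures of Nrm1 or Nrm1-SA the difference of mcm6 kept its call in Nrm1-SA. The smaller differences did not all keep theirs. Without Nrm1 replicate 2 mcm4 (0.04), mcm7 (0.04) and orc4 (0.03) lost their calls, and without Nrm1-SA replicate 1 the same 3 did, at 0.04 for mcm4, 0.01 for mcm7 and 0.05 for orc4. Without Nrm1 replicate 1 mcm3 lost its call at -0.03, and without Nrm1-SA replicate 2 mcm3 and orc1 did, at -0.06 and -0.05. That left 6 and 4 called genes without Nrm1 replicates 1 and 2, and 4 and 5 without those of Nrm1-SA. Without either culture of Nrm1-SD mcm2 gained a call, which gave 8.

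**Figure D4:**
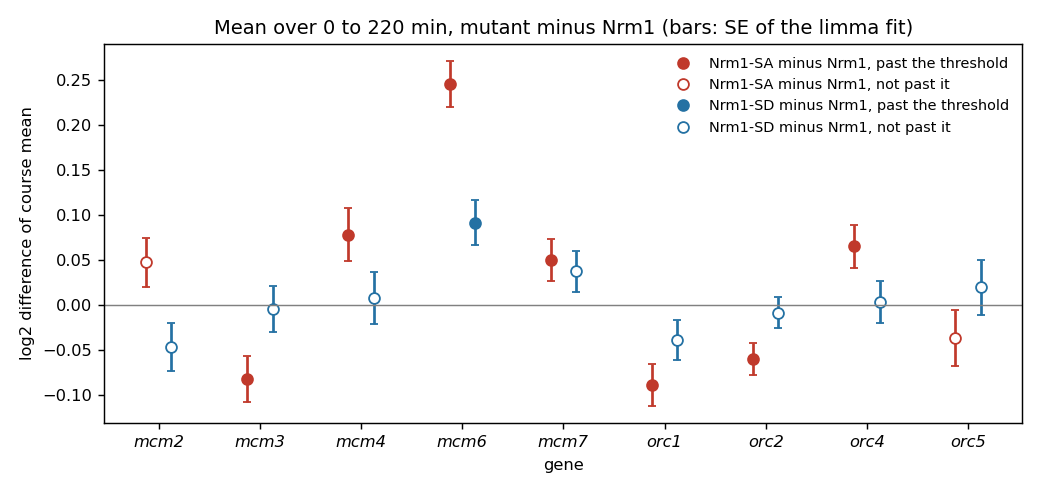
Log2 difference of the mean over 0 to 220 min (y axis) between each mutant and Nrm1, for the 9 genes (x axis), with the SE of the limma fit as bars. Filled points passed the threshold. mcm6 lies at 0.25 in Nrm1-SA and 0.09 in Nrm1-SD, and the other genes lie within 0.1 of 0.

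In the other initiation genes, 10 of 20 differed in course mean in Nrm1-SA. Higher were mcb1 (0.19 ± 0.04 on the log2 scale), the ring subunit gene mcm5 (0.12 ± 0.03; limma adjusted p = 0.0008) and rad4, and lower were cdt1 (-1.40 ± 0.03), cdt2, cdc18, psf2, hsk1, dfp1 and cdc45. In Nrm1-SD 3 of 20 did, with mcb1 (0.11 ± 0.04) higher and cdt1 (-0.59 ± 0.03) and cdt2 lower. A wave passed in 16 of the 20 for Nrm1, which leaves orc6, mcm5, cdc23 and rad4. It passed in 8 for Nrm1-SA (cdc45, sld5, sld3, drc1, hsk1, dfp1, cdt1 and ddb1). It passed in 13 for Nrm1-SD, these without sld5 and with orc3, psf1, psf2, cdc18, cdt2 and mcl1.

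Profiles most like those of the 9, by Pearson r over the 39 condition means among 4917 other protein-coding genes, are given as a description, since all points come from the same cultures. The mean profile of the 5 mcm genes was nearest to gea1 (0.90), ogm4 and SPBC21C3.15c (0.86 each). gea1 is the next coding gene downstream of mcm6, on the same strand and 178 bases away. The mean profile of the 4 orc genes was nearest to use1 (0.81), sld5 (0.78), which encodes a GINS subunit, and pmc4 (0.77). mcm6 was nearest to taz1 (0.90), which encodes the telomere-binding protein Taz1, then big1 (0.89) and pcp1 (0.88). mcm7 was nearest to SPBC1778.09, SPAC15A10.07 (0.90 each) and rud3 (0.89). mcm3 was nearest to dhx29 (0.84), sen1 and kap123 (0.83 each), mcm4 to sad1 and gef3 (0.85 each) and for3 (0.81), and mcm2 to cnt6 (0.82), nup186 (0.77) and tra2 (0.76). orc4 had the closest neighbours, rxt3 (0.93), rrf1 (0.91) and SPBC21H7.03c (0.90), and orc5 was nearest to mcp1 (0.91), pcs2 (0.90) and rpc34 (0.89). orc1 was nearest to lys2 (0.81), his5 and gbs1 (0.80 each), and orc2 to isd11 (0.78), cbc2 and fcp1 (0.76 each).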

How the data were processed

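Gene-level values of 78 libraries were used as deposited. Per the paper's methods and the processing notes, the authors checked reads with FastQC, mapped them with STAR to the S. pombe genome (ASM294v2), counted features with HTSeq and deposited counts divided by DESeq2 size factors, a normalized signal. Every value was a whole multiple of the smallest one in its column (tolerance 0.01; 100% of values), so whole reads were recovered and used for edgeR 4.0.16 and DESeq2 1.42.0. All 78 columns matched a sample.

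Log2 values, with 1 added to each deposited value, were fitted with limma 3.58.1 under R 4.3.3, its prior following intensity. Features under a mean of 10 were left out. The model held either 1 mean per condition or, per strain, an intercept, a linear trend and a 120 min wave. P-values were adjusted by Benjamini-Hochberg over all 7431 tested features, with the study's threshold of 0.1. Fold changes are on the log2(value + 1) scale. Replicates are called biological in the study, but whether the same number in different strains marks a shared day is not stated. All 9 members were named, with the initiation genes past the threshold in the comparisons described and the 3 coding genes nearest in profile. The members and lists were chosen with earlier results of these data known. IDs matched the annotation of ASM294v3 for 12602 features. Alternatives were other pseudocounts, filters, scaling, thresholds, periods, windows, blocks and left-out cultures. Scripts were tested on simulated data. Reads were not counted by molecule, so depth gives counting error only.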

Additional observations from a re-analysis of the deposited data

Results flagged for a closer look

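The amplitude of orc4 differed between Nrm1-SA and Nrm1 by an interaction test across all features. The mean of 60, 80, 180 and 200 min minus that of 120 and 140 min was 0.237 higher in Nrm1-SA on the log2 scale (limma adjusted p = 0.063), from -0.54 in Nrm1. The library values at 140 min come from the 2 Nrm1-SA libraries counted as 1 sample, and the call was lost at an adjusted p under 0.05 and without any single replicate of either strain, as given above. By culture the fitted wave of orc4 was 0.55 ± 0.03 in Nrm1 and 0.43 ± 0.05 in Nrm1-SA (SD, n = 2), without overlap (exact permutation p = 0.33, the smallest possible). The waves of mcm7, smaller in Nrm1-SA, and mcm2, larger there, did not overlap either, and a share over all features was not counted. The test of the wave itself did not call orc4 (limma unadjusted p = 0.77), nor did the strain-by-time test (limma adjusted p = 0.16). The median waves of septation, mitotic and histone genes were smaller in Nrm1-SA too, as given above, and the part of this in the difference of orc4 was not tested.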

How the results depend on the processing

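Each of 20 counts was recomputed under up to 23 alternatives, 388 values in all, of which 351 stayed within 1.5 times. Of 3492 values of single genes, 51 lost a call, 45 gained one and 0 turned direction. Waves passed in 7 of 9 genes in Nrm1 (period 130 min, without 0 min), in 3 in Nrm1-SA (no filter, adjusted p under 0.05, period 110 min), and in Nrm1-SD in 8 (period 130 min, without 0 min) and 3 (no linear trend). The time course differed in Nrm1-SA in 1 gene (TMM scaling, mean of at least 50, edgeR) and in 2 with all 78 libraries. The Nrm1 amplitude passed in 4 (strains compared only, edgeR) and 6 genes (first cycle only). The amplitude difference in Nrm1-SA was called in 0 (no filter, adjusted p under 0.05, first cycle only). Leaving out single cultures gave 2 to 4 waves in Nrm1, 1 to 5 in Nrm1-SA, 3 to 5 in Nrm1-SD, 0 to 1 time courses that differed in Nrm1-SA, 1 to 4 amplitudes in Nrm1, 0 to 1 amplitude differences in Nrm1-SA, 0 to 1 for the block, 4 to 8 course means in Nrm1-SA and 0 to 1 in Nrm1-SD. Left-out fits keep 1 library in some conditions, whose spread is taken from the others. The cause of these shifts was not tested.

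Replicates of the same number in different strains deviated together weakly at most. The correlation of their differences was over 0.1 in 3 of 12 conditions for Nrm1-SA and 4 of 13 for Nrm1-SD. It ranged from -0.115 to 0.122 with a median of -0.02 for Nrm1-SA, and from -0.11 to 0.23 with a median of 0.06 for Nrm1-SD. With a replicate block, shared or per strain, the time course of 1 gene, mcm6, differed in Nrm1-SA, and 3 gene calls changed in all.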
